A study of Mus musculus with 30 samples.

Results

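The genes described here build and run the actin cytoskeleton and its contractile form: actins, myosins, tropomyosins, proteins that decorate or crosslink actin filaments, focal adhesion and LIM proteins, and the transcription factor Srf. They were taken from a list of 35 named genes, all of which were found among the 23109 genes measured. Messenger RNA was sequenced from mouse brown preadipocytes, the precursor cells of heat-producing brown fat, in 8 libraries. Preadipocytes of newborn C57BL/6J pups, taken from interscapular brown fat, carried the GR-flox/flox allele, in which loxP sites flank the glucocorticoid receptor gene Nr3c1, and were immortalised with SV40 T antigen. All 8 libraries descend from these cells. A retrovirus then delivered either nothing further (Vec, receptor gene intact) or Cre recombinase (Cre, receptor gene deleted), and each genotype was sampled once at each of 4 times: before induction (D0), 4 hours into it (4h), and on day 2 (D2) and day 7 (D7). Confluent cells, plated 4 days earlier, received dexamethasone (2 µg/ml, a receptor ligand), IBMX (0.5 mM, which raises cAMP), indomethacin (0.125 mM), insulin (0.02 µM) and T3 (1 nM) for 4 hours, so the D0 cells had met none of these agents. Whether the lines are clonal, and which media followed the 4 hours, the sources used here do not say.

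Actin monomers assemble into filaments, and bundles of filaments with myosin II form stress fibres that pull on the substrate through focal adhesions. Fibroblast-like preadipocytes on plastic carry such fibres, and their loss with rounding of the cell is a known early step of fat cell differentiation. Many of these genes share a control circuit: monomeric actin holds MRTF coactivators in the cytoplasm, polymerisation frees them, and they then activate Srf at a short DNA element called the CArG box. Glucocorticoids are known to affect stress fibres in several cell types, and cAMP is known to weaken them.

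The libraries held 7.7 (Cre 4h) to 28.9 M reads (Vec D2). Nr3c1, counted over its whole transcript, lay between 12.9 and 32.1 RPKM (the authors' read number corrected for transcript length and for depth) in the Vec libraries and between 4.04 and 8.07 RPKM in the Cre libraries, so at every time it was lower in Cre, and it was not at 0 there. Each genotype and time is 1 library, with no replicate of its own. Times were therefore compared over both genotypes with edgeR's quasi-likelihood test in a model of time plus genotype, whose error is the departure from additivity, and the p-values measure the spread over these 8 libraries and not between independent cultures. Of the 35 genes, 34 reached an RPKM of 1 in 2 or more libraries, which was the condition for entering this test. The exception was Myh11, the smooth muscle myosin heavy chain, which stayed between 0.124 and 1.10 RPKM. A change is called below at a Benjamini-Hochberg adjusted p under 0.05 over all 12581 genes tested.

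The CArG box is the element that ties many of these genes to Srf, and it was searched for on both strands of RefSeq promoters (assembly GRCm38.p6, from 250 bases before to 50 after each start). Promoters were given for 30 of the 35 genes, and not for Actg2, Actb, Myh11, Tagln and Csrp2. Only an exact match to CC, 6 letters of A or T, and GG was counted. Boxes that depart from this pattern or lie outside these stretches would be missed, so a gene without a match may still have one. A CArG box stood in 8 of the 30 (26.7%: Actg1, Myl9, Myl6, Cnn2, Vcl, Fhl1, Fhl2 and Srf), against 1.81% of 27025 genes with a promoter and 1.60% of the 9559 among them that were tested. The stretches around the boxes of 6 of these 8 genes are shown, with the box in capitals, 5′ to 3′ on the strand of the gene. Srf has 2 boxes, which begin 82 and 62 bases before its start.
Srf, chr17:46556185-46556274 (minus strand): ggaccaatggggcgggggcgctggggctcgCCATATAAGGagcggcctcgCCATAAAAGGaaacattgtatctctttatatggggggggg
Myl9, chr2:156775273-156775342 (plus strand): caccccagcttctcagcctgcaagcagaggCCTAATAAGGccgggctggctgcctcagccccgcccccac
Cnn2, chr10:79988514-79988583 (plus strand): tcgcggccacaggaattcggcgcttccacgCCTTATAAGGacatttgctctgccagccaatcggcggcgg
Vcl, chr14:20929148-20929210 (plus strand): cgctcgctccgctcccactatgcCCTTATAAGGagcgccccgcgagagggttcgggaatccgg
Actg1, chr11:120348546-120348615 (minus strand): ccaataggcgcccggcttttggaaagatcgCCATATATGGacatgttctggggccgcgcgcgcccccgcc
Fhl2, chr1:43163962-43164022 (minus strand): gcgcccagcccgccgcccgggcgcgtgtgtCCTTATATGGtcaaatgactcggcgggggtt
All of these boxes lie upstream of the start, and Cnn2 and Vcl hold the same 10 letters. A TEAD site (CATTCC, or GGAATG on the other strand) stood in 10 of the 30 promoters (33.3%, against 16.6% of all genes with a promoter), and an AP-1 site (TGAGTCA or TGACTCA) in 3 (10.0%, Mylk, Cald1 and Zyx, against 5.95%). These matches describe letters only. Protein binding at these windows was not analysed here.

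The dominant pattern was a deep fall of the contractile transcripts by day 2 and a return by day 7. The summed RPKM of the 35 genes was 5379 in Vec and 5000 in Cre at D0, 3262 and 3901 at 4h, 1490 and 1766 at D2, and 3400 and 4358 at D7. Both genotypes were lowest at D2, and Cre lay below Vec at D0 and above it at the 3 later times. As a share of a library's reads, the genes went from 1.56% in Vec and 1.49% in Cre at D0 to 0.468% and 0.549% at D2. At D2, 29 of the 34 genes tested were lower than at D0 and 0 were higher, with a median log2 change of -1.45, where 38.7% of all 12581 genes were called and the median of all genes was 0.02 (21.0% of all genes were lower, 17.7% higher). The D2 libraries held the lowest level of 27 of the 34 genes, against 22.3% of all genes, and the highest level of none, against 32.6%. In bulk RNA, fewer cells of a type and less RNA per cell cannot be told apart.

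**Figure D1:**
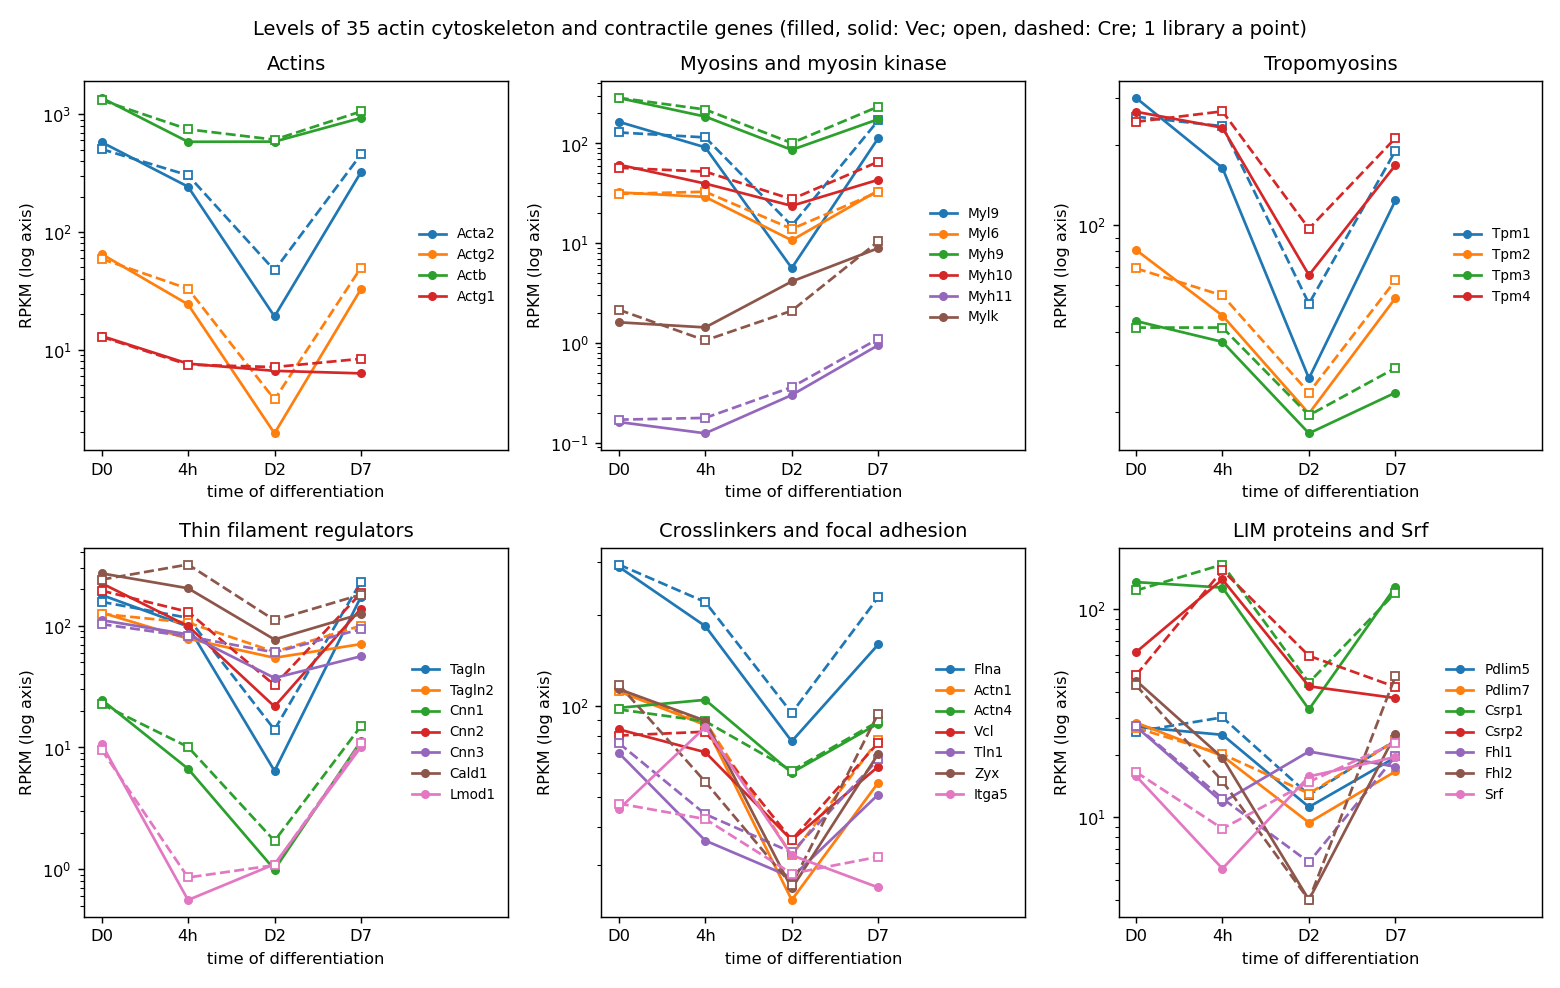
RPKM (log axis) of the 35 genes at D0, 4h, D2 and D7, in 6 panels by role; filled points and solid lines are Vec, open points and dashed lines Cre, 1 library a point. Most lines dip at D2 and return at D7. Mylk, Myh11 and Srf, and by a little Myl6, end above their start in both genotypes. Srf is lowest at 4h, Csrp2 peaks at 4h, and Fhl1 splits by genotype at D2.

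All 4 actins were lower at D2, the smooth muscle actins by far larger changes than the cytoplasmic ones. Acta2, the alpha actin of smooth muscle and of stress fibres in activated fibroblasts, measured 581 RPKM in Vec and 507 in Cre at D0, 243 and 304 at 4h, 19.2 and 47.3 at D2, and 323 and 457 at D7. Actg2, the gamma actin of visceral smooth muscle, followed the same course from 65.1 and 59.2 RPKM at D0 over 24.3 and 33.0 at 4h to 1.95 and 3.78 at D2 and 32.8 and 49.9 at D7. At D2 both genotypes lay below every other library for these genes, and the log2 change from D0 was -4.16 ± 0.40 (SE, edgeR adjusted p = 0.00293) for Acta2 and -4.52 ± 0.29 (edgeR adjusted p = 0.0019) for Actg2. Actb, the main cytoplasmic actin, measured 1383 and 1320 RPKM at D0, 585 and 747 at 4h, 587 and 610 at D2, and 932 and 1059 at D7, so it was already as low at 4h as at D2 in Vec. Actg1, the other cytoplasmic actin, measured 13.1 and 12.9 RPKM at D0, 7.62 and 7.47 at 4h, 6.62 and 7.13 at D2, and 6.30 and 8.38 at D7. Their log2 changes at D2 were -1.20 and -0.95, and neither call held without the Vec D0 library (edgeR adjusted p = 0.0506 and 0.085), nor that of Actg1 without Vec D2 (0.0718). Actins are close copies of each other, and the sources used here do not say how reads matching several of them were placed, so the split between Actb and Actg1, and between Acta2 and Actg2, is uncertain, as is the level of Actg1.

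Among the motor genes the regulatory light chain fell with the smooth muscle actins, the non-muscle heavy chains fell less, and the kinase went the other way by day 7. Myl9, the regulatory light chain whose phosphorylation switches myosin II on, measured 165 RPKM in Vec and 129 in Cre at D0, 91.5 and 115 at 4h, 5.63 and 15.0 at D2, and 113 and 170 at D7 (log2 change at D2 -3.97 ± 0.44, edgeR adjusted p = 0.00347). Myl6, an essential light chain, measured 32.3 and 31.2 RPKM at D0, 29.1 and 32.8 at 4h, 10.7 and 13.9 at D2, and 33.7 and 32.6 at D7. It was lower at D2 alone, and its levels at the other 3 times spanned 29.1 to 33.7. Reads that also match copies of Myl6 elsewhere may have been dropped or shared out, so its level is uncertain. Myh9, the heavy chain of non-muscle myosin IIA, measured 286 and 287 RPKM at D0, 186 and 219 at 4h, 86.3 and 101 at D2, and 175 and 234 at D7. Myh10, the IIB heavy chain, measured 61.3 and 57.0 RPKM at D0, 39.6 and 52.2 at 4h, 23.7 and 27.6 at D2, and 43.2 and 65.6 at D7. All of Myl6, Myh9 and Myh10 were called lower at D2, with log2 changes of -1.40, -1.65 and -1.25. Mylk, the calcium-dependent kinase of the regulatory light chain, measured 1.61 and 2.15 RPKM at D0, 1.43 and 1.06 at 4h, 4.13 and 2.10 at D2, and 8.91 and 10.4 at D7, so both D7 libraries lay above all others. Myh11 measured 0.161 RPKM in Vec and 0.170 in Cre at D0, 0.124 and 0.177 at 4h, 0.300 and 0.360 at D2, and 0.949 and 1.10 at D7, on 9 to 180 reads, and was not tested.

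All 4 tropomyosins, the coiled coils that lie along actin filaments and set which myosins may bind, were lower at D2. Tpm1 fell most, from 300 RPKM in Vec and 255 in Cre at D0 over 164 and 235 at 4h to 26.8 and 51.0 at D2, and measured 124 and 190 at D7 (log2 change at D2 -2.94 ± 0.30, edgeR adjusted p = 0.00321). Tpm2 measured 81.0 and 69.1 RPKM at D0, 46.0 and 54.7 at 4h, 19.8 and 23.7 at D2, and 53.5 and 62.3 at D7. For both genes each D2 library lay below all libraries of other times, and neither genotype was back at its D0 level by D7. Tpm3 measured 43.9 and 41.5 RPKM at D0, 36.7 and 41.5 at 4h, 16.7 and 19.5 at D2, and 23.7 and 29.3 at D7, the smallest return of the 4. Tpm4, a non-muscle form, held its D0 level at 4h (266 and 244 RPKM at D0, 232 and 267 at 4h) and then measured 65.2 and 97.3 at D2 and 168 and 212 at D7. Tpm1 has 10 accessions, and all of them had lower levels at D2 than at D0. The differences in log2(RPKM + 1) were -3.50 to -2.95 (Vec) and -2.30 to -2.01 (Cre). Accessions of 1 gene can share reads, so these are not separate measurements.

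All 7 thin filament regulators were lower at D2, by log2 changes of -4.20 to -1.16. Tagln, the transgelin of smooth muscle, measured 179 RPKM in Vec and 157 in Cre at D0, 98.6 and 116 at 4h, 6.42 and 14.0 at D2, and 173 and 230 at D7 (log2 change at D2 -4.13 ± 0.35, edgeR adjusted p = 0.00249). Tagln2, its widely expressed relative, measured 128 and 125 RPKM at D0, 78.2 and 106 at 4h, 54.5 and 61.0 at D2, and 70.6 and 100 at D7, so it kept 42.7% of its D0 level in Vec at D2 where Tagln kept 3.59%. The calponins bind actin and slow the myosin ATPase. Cnn1, the smooth muscle calponin, measured 24.7 and 22.7 RPKM at D0, 6.69 and 10.1 at 4h, 0.994 and 1.71 at D2, and 11.3 and 15.0 at D7 (log2 change at D2 -4.20 ± 0.25, edgeR adjusted p = 0.0019). Cnn2 measured 223 and 194 RPKM at D0, 99.3 and 130 at 4h, 21.7 and 32.5 at D2, and 138 and 185 at D7. Cnn3 measured 111 and 103 RPKM at D0, 84.9 and 81.6 at 4h, 37.2 and 60.4 at D2, and 56.1 and 93.8 at D7. The log2 change at D2 was -3.00 for Cnn2 and -1.19 for Cnn3, and the call for Cnn3 was lost without Vec D0 or Vec D2 (edgeR adjusted p = 0.153 and 0.138). Cald1, caldesmon, another actin-bound brake on myosin, measured 269 and 239 RPKM at D0, 203 and 318 at 4h, 77.0 and 111 at D2, and 125 and 180 at D7. Lmod1, a leiomodin that nucleates actin filaments in smooth muscle, was already low at 4h, with 10.7 and 9.60 RPKM at D0, 0.559 and 0.856 at 4h, 1.10 and 1.08 at D2, and 10.1 and 10.9 at D7.

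Of 3 crosslinkers and 4 focal adhesion genes 6 were lower at D2, by log2 changes of -2.22 to -0.72, and Itga5 had a course of its own. Flna, the filamin that joins filaments into networks, measured 289 RPKM in Vec and 294 in Cre at D0, 184 and 221 at 4h, 76.6 and 95.0 at D2, and 160 and 229 at D7. The actinins crosslink filaments in parallel: Actn1 measured 112 and 112 RPKM at D0, 86.7 and 89.0 at 4h, 22.9 and 32.2 at D2, and 55.9 and 77.4 at D7, while Actn4 measured 98.8 and 97.6, 105 and 89.2, 60.3 and 61.3, and 87.7 and 89.1. Log2 changes at D2 were -1.80 for Flna, -2.06 for Actn1 and -0.72 for Actn4, and the call for Actn4 was lost without Vec D0, Cre D0 or Vec D2 (edgeR adjusted p = 0.0942, 0.0811 and 0.104). Zyx, zyxin, which marks mature adhesions under tension, measured 114 and 118 RPKM at D0, 89.6 and 56.3 at 4h, 25.0 and 25.7 at D2, and 69.6 and 94.6 at D7 (log2 change at D2 -2.22 ± 0.29, edgeR adjusted p = 0.00468). Vcl, vinculin, which reinforces the link from integrins to actin, measured 83.9 and 80.0 RPKM at D0, 70.5 and 82.4 at 4h, 36.1 and 36.2 at D2, and 63.2 and 75.8 at D7. Tln1, talin, which activates integrins, measured 70.1 and 75.6 RPKM at D0, 36.0 and 44.0 at 4h, 27.2 and 32.9 at D2, and 51.1 and 66.8 at D7. Vcl and Tln1 were both lower at D2 (log2 changes -1.21 and -1.31), but Tln1 had made most of its fall by 4h and Vcl had not. Itga5, the alpha chain of the fibronectin receptor, measured 45.7 and 47.7 RPKM at D0, 85.3 and 42.4 at 4h, 32.2 and 28.0 at D2, and 25.2 and 31.8 at D7, with its only peak in Vec at 4h, and its change at D2 did not pass (-0.67, edgeR adjusted p = 0.158).

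The LIM proteins, small zinc-finger adaptors, went separate ways. Fhl2, which shuttles between adhesions and the nucleus, measured 45.4 RPKM in Vec and 43.1 in Cre at D0, 19.3 and 14.9 at 4h, 4.01 and 4.00 at D2, and 25.0 and 47.6 at D7 (log2 change at D2 -3.49 ± 0.34, edgeR adjusted p = 0.00296). Csrp1, a LIM protein of actin bundles, measured 135 and 123 RPKM at D0, 127 and 164 at 4h, 33.0 and 44.4 at D2, and 128 and 120 at D7. Both were lower at D2, and Csrp1 was the closer to its D0 level at 4h and at D7 in Vec. Pdlim5 measured 27.2 and 25.8 RPKM at D0, 24.9 and 30.2 at 4h, 11.2 and 12.8 at D2, and 19.4 and 23.4 at D7, and Pdlim7 28.5 and 26.9, 19.7 and 20.1, 9.42 and 13.0, and 16.6 and 23.3. These PDZ-LIM adaptors of the actin bundles had log2 changes of -1.18 and -1.35 at D2, and the call for Pdlim7 was lost without Vec D0 (edgeR adjusted p = 0.0506). Csrp2, a LIM protein of smooth muscle, measured 62.1 and 48.1 RPKM at D0, 139 and 154 at 4h, 42.6 and 59.7 at D2, and 37.4 and 42.3 at D7. Fhl1, a muscle LIM protein, measured 27.3 and 27.5 RPKM at D0, 11.8 and 12.3 at 4h, 20.7 and 6.08 at D2, and 17.5 and 19.6 at D7, and was the 1 gene of the 34 with no call in any of the 5 comparisons of times. Srf itself measured 15.8 and 16.5 RPKM at D0, 5.66 and 8.81 at 4h, 15.7 and 14.8 at D2, and 19.5 and 22.8 at D7. At D2, when 29 of the genes were low, Srf mRNA had a log2 change from D0 of -0.11 ± 0.15 (edgeR adjusted p = 0.614).

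**Figure D2:**
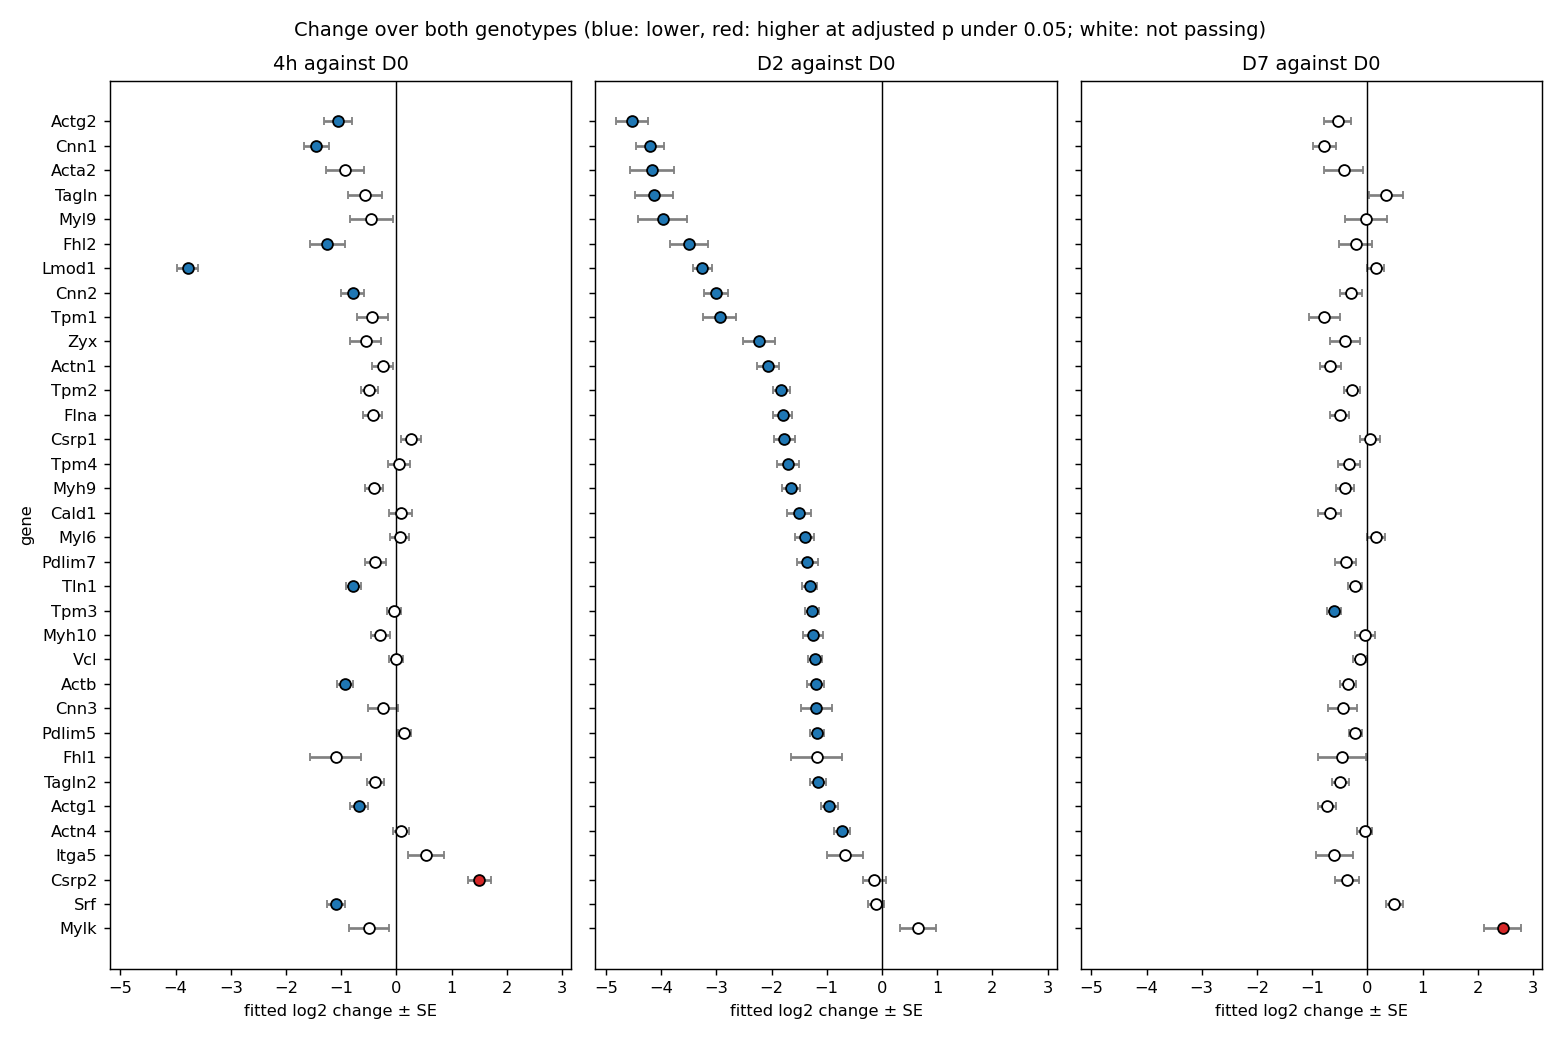
Fitted log2 change from D0 ± SE over both genotypes for the 34 genes tested, at 4h, D2 and D7, ordered by the change at D2; blue and red mark calls. The D2 panel runs from -4.52 for Actg2 to 0.65 for Mylk with 29 blue points, the D7 panel holds 2 calls, and Lmod1 at 4h (-3.78) stands far left of all others.

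At 4 hours 9 of the 34 genes were lower than at D0 and 1 was higher, with a median log2 change of -0.44. The share called in either direction, 29.4%, was near the 25.3% called among all genes. The directions differed: 9 of the 10 member calls were lower, while calls among all genes were split about evenly (12.2% higher, 13.1% lower). Lmod1 had the largest change, -3.78 ± 0.19 (edgeR adjusted p = 0.00342), with 5.22% of its D0 level left in Vec (95% interval 3.42 to 7.64, counting error only) and 8.92% in Cre (5.79 to 13.1). Cnn1 (-1.45), Fhl2 (-1.25), Srf (-1.09), Actg2 (-1.06), Actb (-0.93), Cnn2 (-0.79), Tln1 (-0.78) and Actg1 (-0.68) were also lower. The gene called higher was Csrp2, by 1.50 ± 0.21 (edgeR adjusted p = 0.0107), at 224% of its D0 level in Vec and 320% in Cre. Acta2, with a log2 change of -0.93, did not pass (edgeR adjusted p = 0.10). DESeq2 called it lower (adjusted p = 0.0358), and in that fit 14 members and 3659 of all genes were called. On leaving out 1 library, 0 members passed at 4h without Vec D0, 1 without Vec 4h, 4 without Cre D0 and 5 without Cre 4h. Calls over all genes went from 3188 to 0, 82, 717 and 1616 in the same fits, so the loss is one of the whole fit. The lost calls had adjusted p from 0.0506 to 0.222.

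From 4h to D2 28 of the 34 genes were lower and 1 was higher, with a median log2 change of -1.33, where 33.4% of all genes were called (18.0% lower, 15.4% higher). Tagln (-3.56 ± 0.34, edgeR adjusted p = 0.00309), Myl9 (-3.51 ± 0.43, edgeR adjusted p = 0.00481), Actg2 (-3.47) and Acta2 (-3.23) fell most in this interval, and Csrp2 fell by 1.64 from its 4h level (edgeR adjusted p = 0.00558). Srf was the gene that rose, by 0.98 ± 0.16 (edgeR adjusted p = 0.00917), a call that was lost without Vec 4h or Vec D2. Actb, Actg1, Mylk, Lmod1 and Fhl1 did not pass. Without Vec 4h or without Vec D2 21 members passed in each case, and 1232 and 1444 of all genes in place of 4202. The calls of 9 genes (Myh10, Tagln2, Cnn3, Actn4, Tln1, Zyx, Itga5, Pdlim7 and Srf) were lost in at least 1 alternative, with adjusted p of at most 0.248, and those of the other 20 in none.

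From D2 to D7 29 of the 34 genes rose and 0 fell, with a median log2 change of 1.27, where 24.3% of all genes were called (15.4% higher, 8.93% lower). Tagln rose by 4.46 ± 0.35 (edgeR adjusted p = 0.00381), Actg2 by 3.99 ± 0.28 (edgeR adjusted p = 0.00325), Myl9 by 3.95 and Acta2 by 3.73. Cnn1 (3.42), Lmod1 (3.39), Fhl2 (3.29), Cnn2 (2.70) and Tpm1 (2.16) followed, and Actg1, Cnn3, Fhl1, Csrp2 and Itga5 did not pass. Without Vec D2 15 members passed, and 519 of all genes in place of 3058. The calls of 13 genes were kept in all 15 alternatives (Acta2, Actg2, Myl9, Myl6, Tpm1, Tpm2, Tagln, Cnn1, Cnn2, Lmod1, Vcl, Csrp1 and Fhl2), and calls of the other 16 were lost in at least 1, with adjusted p of at most 0.232.

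Between D0 and D7, 1 gene was higher and 1 lower of the 34, against 8.09% of all genes (5.68% higher, 2.42% lower). Mylk was higher by 2.45 ± 0.34 (edgeR adjusted p = 0.0195), at 552% of D0 in Vec and 482% in Cre, and this call was lost without Vec D0, Cre D0 or Vec D7 (adjusted p 0.184, 0.0614 and 0.0538). Tpm3 was lower by a log2 change of -0.60 ± 0.13 at an edgeR adjusted p of 0.0497, and that call was lost on leaving out any of the 8 libraries, with adjusted p from 0.0635 to 0.353. The small count does not show that D7 equals D0. The median log2 change of the 34 genes was -0.36, 11 had an unadjusted p under 0.05, and DESeq2 called 1 higher and 8 lower, among them Tpm1, Cnn1, Cald1, Flna and Actn1. Within Vec the median gene was at 61.6% of its D0 level at D7 (range 41.2 to 552%), with 3 genes above D0. Within Cre it was at 88.2% (range 64.8 to 482%), with 8 above D0, while the medians of all genes tested were 91.7% in Vec and 94.9% in Cre.

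**Figure D3:**
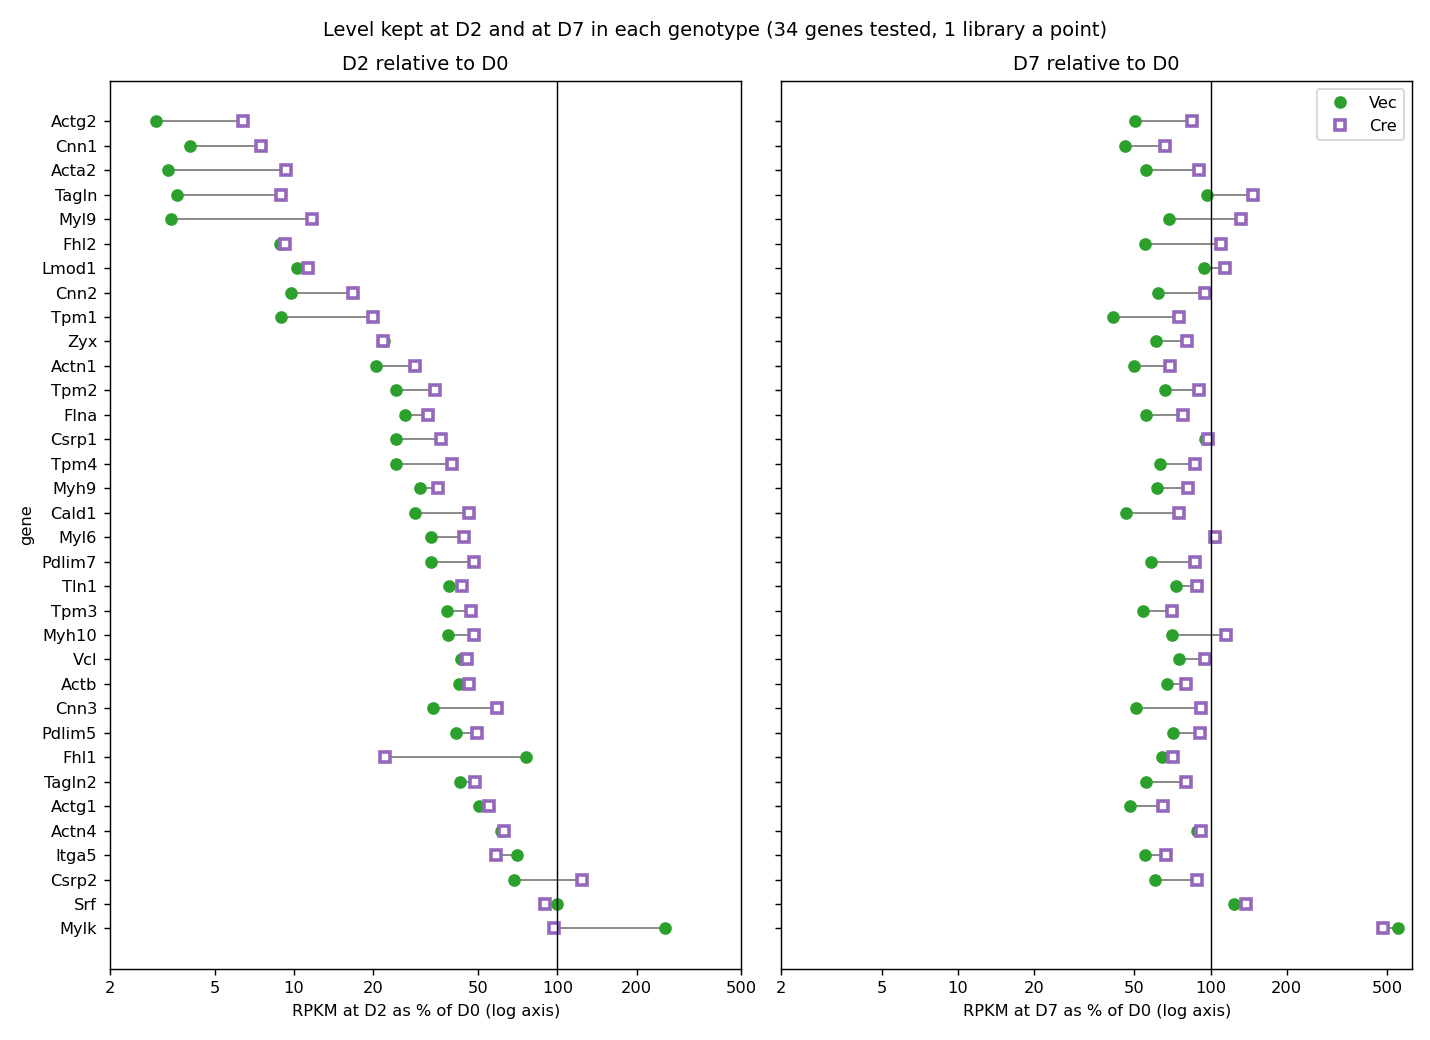
RPKM at D2 (left) and D7 (right) as a percentage of D0 in the same genotype, on a log axis, for the 34 genes tested; filled circles are Vec, open squares Cre, and a line joins the genotypes. At D2 Actg2, Acta2, Tagln, Myl9 and Cnn1 kept 2.99 to 4.02% in Vec and 6.40 to 11.7% in Cre, and at D7 most squares lie to the right of the circles.

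The genotypes were compared at each time by size, with no test, since each holds 1 library. The size rule asked for a difference of 1 or more in log2(RPKM + 1), and a gene entered if either of the paired libraries reached an RPKM of 1. Intervals cover counting error only. At D0 0 of 34 genes differed by that much (0.433% of all genes, 0.158% higher in Cre and 0.275% lower), 8 lay above Vec in Cre where 52.1% of all genes did, and the differences ran from -0.36 to 0.27. At 4h 0 of 33 did (4.24% of all genes, 1.65% higher in Cre and 2.59% lower), and 26 lay above Vec in Cre, against 66.1% of all genes. The median difference at 4h was 0.24 for these genes and 0.11 for all genes, so genes in general also lay somewhat higher in Cre. How much of the difference of these genes this covers was not tested. Under TMM, the normalisation of the model, the log2 size factor of the Vec 4h library was -0.116 against its deposited total, so that rescaling by it raises the Vec 4h levels.

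On day 2 several smooth muscle genes had higher levels in the cells without the receptor. Of 34 genes 3 were at least 2-fold higher on this scale in Cre (2.55% of all genes) and 1 was at least 2-fold lower (1.54%), so 4 differed in all, against 4.09% of all genes. Myl9 measured 15.0 RPKM in Cre against 5.63 in Vec (2.67-fold, interval 2.24 to 3.20). For Acta2 the levels were 47.3 against 19.2 (2.46-fold, 2.28 to 2.65), and for Tagln 14.0 against 6.42 (2.18-fold, 1.90 to 2.52). Just under the size rule lay Tpm1, with a difference of 0.90 (1.90-fold, 1.78 to 2.04). Actg2 had a difference of 0.70 (1.94-fold, 1.45 to 2.62). In all, 28 of 34 genes lay above Vec in Cre at D2, against 44.0% of all genes, with a median difference of 0.26 beside -0.04. Acta2 kept 3.31% of its D0 level in Vec (3.10 to 3.53) and 9.33% in Cre (8.93 to 9.75), and Myl9 3.41% and 11.7%, so the fall was deep in both genotypes. With log2(RPKM + 5) in place of log2(RPKM + 1), 1 gene was 2-fold higher (Acta2) and 1 lower.

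On day 7 nearly all of the genes lay higher in Cre by a small step. The difference was positive for 33 of 35 genes, against 53.5% of all genes, with a median of 0.37 beside 0.03, and 0 of 35 reached the size rule (4.50% of all genes, 1.39% higher in Cre and 3.12% lower). Below Vec were Csrp1 (-0.10) and Myl6 (-0.05). Fhl2 had the largest difference, 47.6 against 25.0 RPKM (1.91-fold, interval 1.74 to 2.09), followed by Cnn3 (1.67-fold, 1.58 to 1.77) and Tpm1 (1.54-fold, 1.47 to 1.60). The same libraries also differed in cell type markers. The summed RPKM of 8 adipocyte markers was 4572 in Vec D7 and 1660 in Cre D7, and that of 6 markers of fibroblastic preadipocytes 402 and 564. Of these 6, Ly6a alone was not higher in Cre (187 RPKM in Vec and 183 in Cre). The part of these marker shifts in the difference was not tested. Tested over all 4 times together, genotype gave 0 calls among the 34 genes and 0 among all genes with edgeR (0.00%), with 1 member (Tln1) and 1501 genes at an unadjusted p under 0.05. DESeq2 called 0 of the 34 genes and 19 of all genes.

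**Figure D4:**
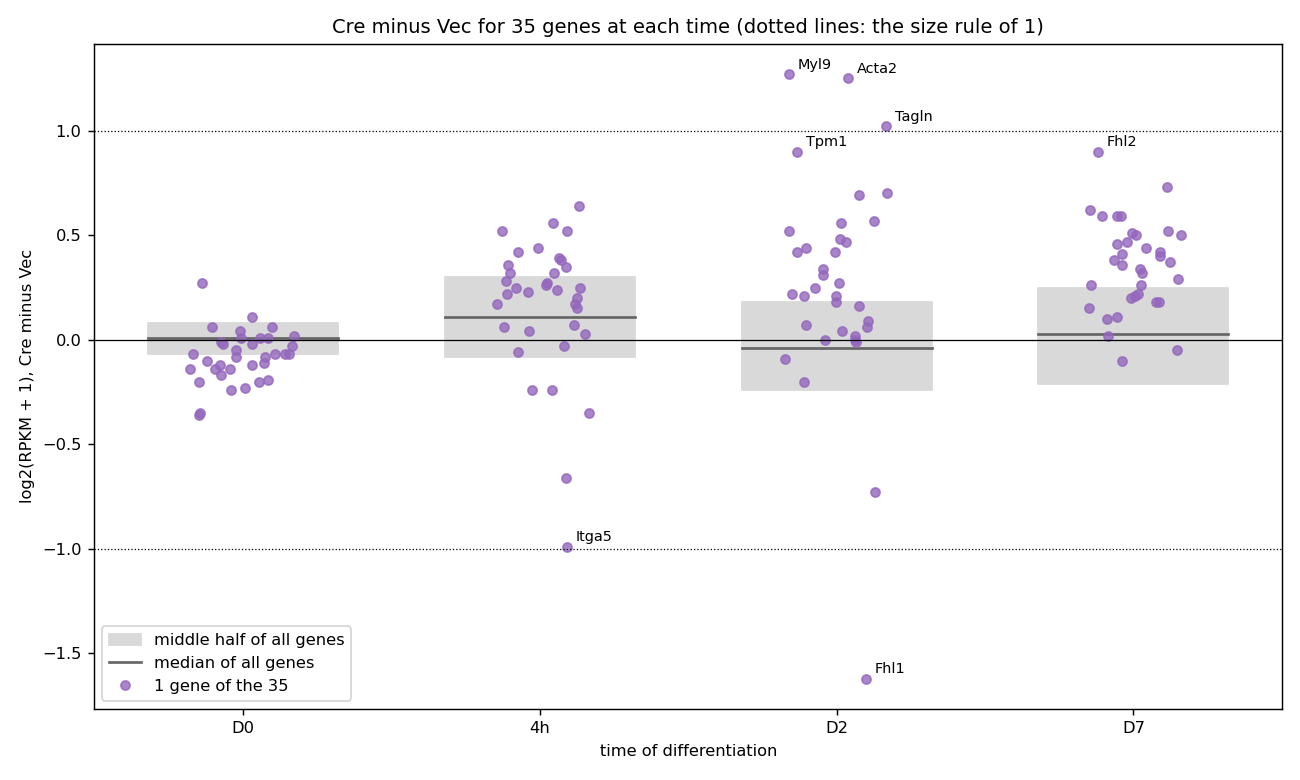
Difference in log2(RPKM + 1), Cre minus Vec, at each time. A point is 1 gene, and all 35 are drawn at each time, also those under an RPKM of 1 in both libraries. The grey box spans the quartiles of all genes with its median as a line, and dotted lines mark the size rule of 1. Points move from mostly a little below 0 at D0 to mostly above 0 at D7. At D2 Acta2, Myl9 and Tagln lie above the upper line and Fhl1 below the lower line.

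Single genes also had levels that differed between the genotypes at 4h or at D2. Itga5 went from 45.7 to 85.3 RPKM within 4 hours in Vec (186% of D0, interval 179 to 194) and from 47.7 to 42.4 in Cre (88.9%, 83.8 to 94.3). At 4h Cre was thus at 49.8% of Vec (46.9 to 52.8), a difference of -0.99, and by log2(RPKM + 0.1) or after TMM rescaling it passed the size rule. Zyx, another adhesion gene, was also lower in Cre at 4h, at 62.8% of Vec (58.4 to 67.4). Srf and Cald1 were higher there, each 1.56-fold (1.32 to 1.84 for Srf, 1.52 to 1.61 for Cald1), Srf on 278 reads or more per library. Cald1 was also 1.44-fold higher in Cre at D2 and at D7, and Zyx was 1.36-fold higher at D7 (1.30 to 1.42). Fhl1 was the gene at least 2-fold lower in Cre at D2, at 29.4% of Vec (26.4 to 32.7). Its D2 level was 176% of its 4h level in Vec and 49.5% in Cre, and at D7 the genotypes were close again (1.12-fold, 1.02 to 1.23). The 3 accessions of Fhl1, which can share reads, had similar changes. From D0 to D2 these were -0.45 to -0.38 in Vec and -2.07 to -2.01 in Cre. Mylk at D2 was at 50.7% of Vec in Cre (45.2 to 56.9), having reached 256% of D0 in Vec and 97.4% in Cre. Whether these responses differ between genotypes beyond the spread between cultures was not tested, since no genotype and time has a replicate.

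**Figure D5:**
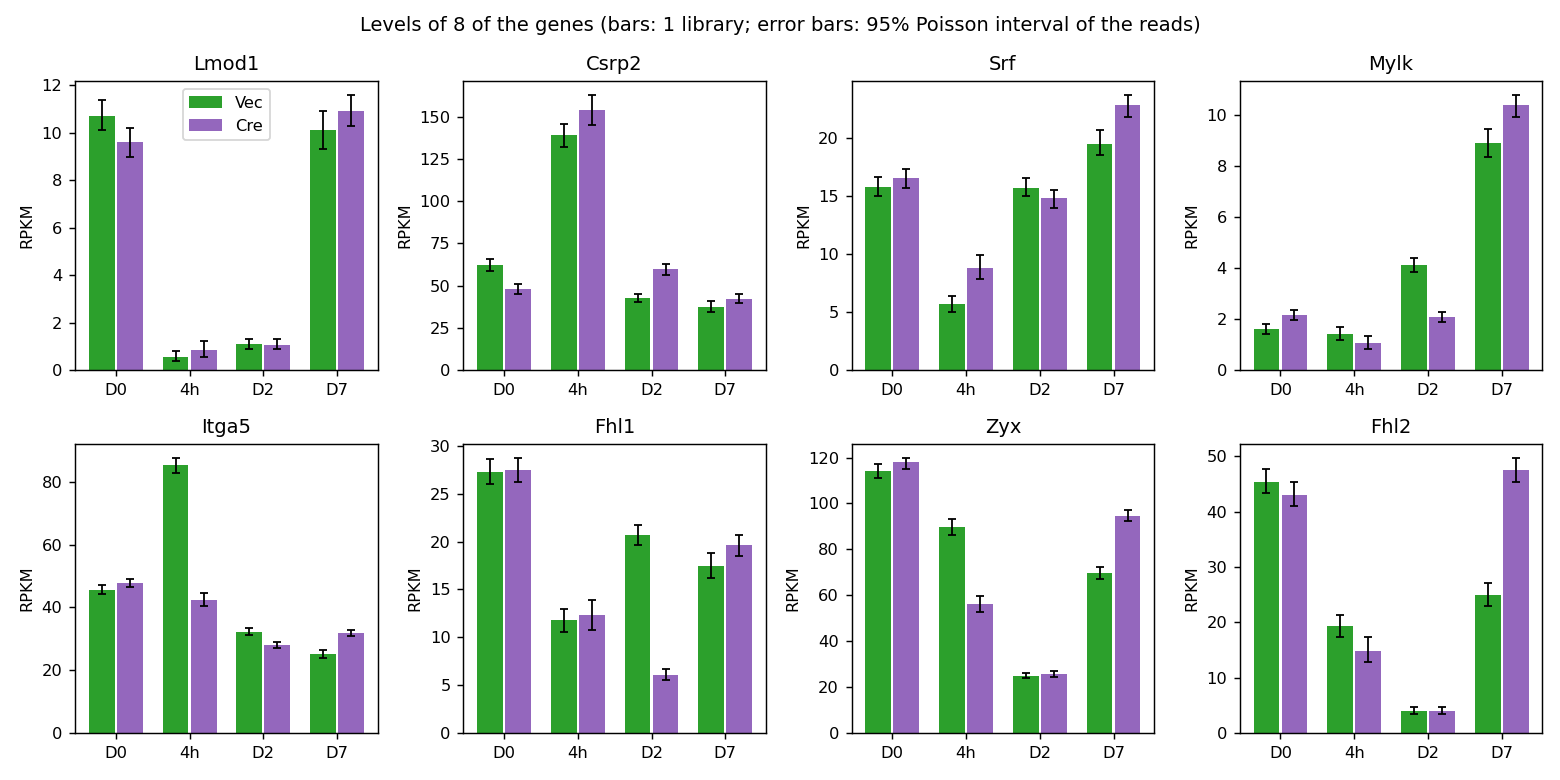
RPKM of 8 of the genes in each library, Vec in green and Cre in purple, with 95% Poisson intervals of the reads. Lmod1 is near 0 at 4h and D2, Csrp2 peaks at 4h, Itga5 peaks in Vec at 4h alone, Fhl1 is low in Cre at D2 alone, and Mylk is highest at D7.

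Other genes of the same pathways were read from 4 lists. Of 30 tested genes (of 33 listed) of integrins and focal adhesions, 21 were lower and 2 higher at D2 than at D0 (median -1.14), where 21.0% of all genes were lower and 17.7% higher. From D2 to D7 19 of them rose and 0 fell, where 15.4% of all genes rose and 8.93% fell. Pdlim2 (-3.26) and Tes (-3.08), both LIM proteins of actin structures, fell at D2, while the laminin receptor chains Itga7 (1.98) and Itga6 (1.84) rose. From D0 to D2 Itga7 went from 1.63 to 9.8 RPKM in Vec and from 1.51 to 4.0 in Cre. Itga6 went from 3.68 to 15.8 RPKM in Vec and from 3.6 to 11.2 in Cre. Of 27 genes of actin filament turnover, 17 were lower and 1 higher at D2 (median -0.71). Tmsb4x, thymosin beta, which sequesters actin monomers, fell by 2.44, and Msn, moesin, which anchors actin to the membrane, by 1.91. Gsn, gelsolin, which severs filaments, rose by 1.93 in the fit over both genotypes. Its levels went from 286 RPKM at D0 to 2203 at D2 in Vec, and from 319 to 575 in Cre. Of 14 YAP-TEAD genes, 7 were lower and 1 higher (median -0.85), with the target gene Ankrd1 at -4.19 and Ajuba at -1.62. Of 19 other contractile genes, 11 were lower and 2 higher (median -1.01), with the skeletal actin Acta1 at -2.49. The placing of reads shared with other actins is not known for Acta1 either, so its level and course are uncertain. The genes named as lower at D2 kept their calls in all 15 alternatives, but they are not all of the largest falls. Of the others among the 3 largest called falls of each list, Ccn2 (-4.44) and Filip1l (-2.05) kept their calls too. Itga11 (-3.76), Hspb1 (-2.39) and Ezr (-1.86) lost theirs on leaving out at least 1 library. The 3 genes named as rising lost their calls without Vec D0, with adjusted p of 0.124 for Itga7, 0.12 for Itga6 and 0.196 for Gsn, and also without Vec D2 (0.0758, 0.0702 and 0.0781), and Itga6 without Cre D0 (0.0517). From D2 to D7 11 turnover genes, 6 of YAP-TEAD and 11 other contractile genes rose, and 0, 0 and 1 fell. At 4h 5, 7, 6 and 1 genes were lower in the YAP-TEAD, turnover, adhesion and other contractile lists, and 0, 1, 1 and 0 were higher, where 13.1% of all genes were lower and 12.2% higher.

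Markers of cell types were read beside these results. Fibroblastic preadipocyte markers (6 of 6 above an RPKM of 1 in every library) summed to 512 RPKM in Vec and 513 in Cre at D0, 728 and 767 at 4h, 184 and 246 at D2, and 402 and 564 at D7, so the sum was lowest at D2 and highest at 4h in both genotypes, and at D7 it was below D0 in Vec and above it in Cre. The members differed in course: Ly6a fell from 183 and 200 RPKM at D0 to 19.2 and 34.9 at D2, Dlk1 was higher at D2 (69.3 and 91.2) than at D0 (53.2 and 58.9), and Pdgfrb was lowest at 4h (14.9 and 35.1). Adipocyte markers (8 genes) summed to 47.8 and 50.3 RPKM at D0, 94.6 and 80.2 at 4h, 2286 and 2076 at D2, and 4572 and 1660 at D7. The part of these shifts in the D2 fall and the D7 return was not tested. Of 9 smooth muscle and pericyte markers, which include Myh11 and Lmod1, 3 to 5 reached an RPKM of 1, and their sum ranged from 19.9 in Vec D2 to 76.6 in Vec D7. Cspg4 (3.74 to 28.3 RPKM), Mcam (5.44 to 38.5) and Notch3 (6.91 to 16.5) were expressed in every library. Others were near 0 throughout: Myocd, the smooth muscle coactivator of Srf, at 0.129 RPKM or less, Abcc9 at 0.0162 or less, Kcnj8 at 0.186 or less and Rgs5 at 0.542 or less. Skeletal muscle markers summed to 18.2 RPKM in Vec and 15.5 in Cre at D0, 7.07 and 11.0 at D2, and 17.7 and 34.5 at D7. The lower sum at D2 came from Acta1, whose level is uncertain. It went from 13.5 RPKM in Vec and 11.9 in Cre at D0 to 1.72 and 3.1 at D2, and measured 10.2 and 18.7 at D7. Of the other skeletal markers, only Tnnc2 in Vec was lower at D2 than at D0 (1.2 against 1.48 RPKM). Ckm lay at 0.0858 RPKM or less. From D0 to D7 in Cre, Mylpf went from 0.879 to 4.39 RPKM, Tnnc2 from 0.839 to 4.5, Tnnt3 from 0.73 to 2.66 and Myog from 0.925 to 2.73. These genes had 100 reads or fewer in each library, and in Vec D7 they stood at 1.83, 2.48, 1.53 and 0.89 RPKM. Endothelial markers summed to 0.296 to 3.12 RPKM, macrophage and leukocyte markers to 0.122 to 1.55, Schwann cell markers to 0.591 to 2.02, and mesothelial markers, mostly Krt19, to 2.14 to 14.6.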

How the data were processed

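RNA of 8 libraries was analysed, and 22 ChIP samples were not analysed here. Per the file headers, the authors deposited a read count and an RPKM value for each of 29082 RefSeq accessions per library. The submitters' processing notes name CASAVA 1.8.2, SICER and mm9. How reads were aligned and counted, with which strand setting and which treatment of multiple matches, was not given in the sources used here. Count divided by RPKM gave back each library's total reads, used as its depth. Accessions were named by RefSeq accession (28436, 97.8%, matched; assembly GRCm38.p6, whose table also gave the promoters), and the accession with the most reads stood for its gene.

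Deposited RPKM values were used for levels and sizes. Read counts were fitted with edgeR 4.0.16 (R 4.3.3; quasi-likelihood, TMM, time plus genotype, 3 residual degrees of freedom, 12581 genes), and the SE is the log2 change over the square root of F. The script was tested on simulated data. Ratios carry 95% exact conditional binomial (Clopper-Pearson) intervals, which cover counting error only. Alternatives were DESeq2 1.42.0, limma 3.58.1, other scalings, filters and accessions, and leaving out each library. The 35 genes, the lists and the tests were chosen with earlier results of these data known. Levels were printed for members with a call in any comparison or a difference of 0.5 between genotypes, and list genes by their largest called changes, up to 3 a direction. A further pathway list is not reported here.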

Additional observations from a re-analysis of the deposited data

Results flagged for a closer look

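For 2 genes the genotypes moved in opposite directions by responses at least 1 apart on the scale of log2(RPKM + 1). Itga5 changed by 0.88 in Vec and by -0.17 in Cre from D0 to 4h. Fhl1 changed by 0.77 in Vec and by -0.91 in Cre from 4h to D2, and by -0.23 in Vec and 1.54 in Cre from D2 to D7. The differences were not tested, since each response is a pair of single libraries. Opposite moves of that size were seen in 255 (2.03%), 233 (1.85%) and 243 (1.93%) of the 12581 genes in these comparisons, and in 1 of the 35 genes in each.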

How the results depend on the processing

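No paired analysis was possible because the labels give no replicate numbers to use as a block; the model already compares times within each genotype through its genotype term. The 10 calls at 4h became 0 to 10 on leaving out 1 library. The 29 calls at D2 against D0 ranged from 24 to 30 and those at D2 against 4h from 21 to 28. The 29 calls at D7 against D2 ranged from 15 to 28. The 2 calls at D7 against D0 ranged from 0 to 2, and were 9 with DESeq2, 5 with limma on log2(RPKM + 1) or on log2(RPKM + 5), 1 with the filter at an RPKM of 5 and 4 with no filter. By size, 1 gene differed at 4h with log2(RPKM + 0.1) or after TMM rescaling in place of 0, and 2 at D2 with log2(RPKM + 5) in place of 4. Fhl1 at D2 against 4h changed by -0.07 in the reported fit by 0.66 without Cre D2 (adjusted p 0.0461) and by -1.10 without Vec D2 (0.0255). The causes were not tested. For genotype over all times, the count of 0 among the 34 genes stayed at 0 in the 15 alternatives, and that among all genes was 19 with DESeq2 and 2 with no filter. Every value rests on 1 library, and the shallowest, Cre 4h, limits Lmod1 at 4h, with 26 reads.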
